A study of Mus musculus with 2 samples.

Results

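The 10 genes of the p53 pathway and the Myc family described here were followed through embryonic day 7 (E7) mouse embryos with and without *Yap1* in the epiblast: *Trp53*, which encodes p53, 7 genes that p53 switches on (*Mdm2*, *Cdkn1a*, *Bbc3*, *Bax*, *Ccng1*, *Phlda3* and *Trp53inp1*), and *Myc* and *Mycn*. They were chosen by name and not by a cut on their values, but with earlier results of these data known. They are 10 of the 32285 genes in the count tables. Each gene symbol matched 1 row. Single-cell RNA-seq was made from 4 pooled control embryos and 3 pooled *Yap1* cKO embryos, 1 library of 3' tags counted by unique molecular identifiers (UMIs) for each genotype. The *Yap1* cKO embryos carried Sox2-Cre and a pair of floxed *Yap1* alleles. The sources differ on the controls: the series' design text and the single-cell methods give Sox2-Cre with 1 floxed *Yap1* allele, the sample label gives WT, and the account of the mouse strains gives floxed littermates without Cre. Sox2-Cre recombines the epiblast and what descends from it, not the extraembryonic lineages. The account of the mouse strains describes embryos with a pair of floxed alleles as likely heterozygous for *Yap1* there, through a deleted paternal allele. It does not say this of controls with 1 floxed allele, so the extraembryonic *Yap1* dose may differ between the pools. Recombination is meant to reach the whole epiblast, so the design sets no *Yap1* wild-type epiblast cells beside the deleted ones, and competition between cells was not itself measured.

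The protein p53 is a transcription factor that is kept low by the ubiquitin ligase Mdm2 and accumulates after DNA damage and other stress, when it switches on genes of cell-cycle arrest and of apoptosis. *Mdm2* is itself among its targets, which closes a feedback loop. Around gastrulation, epiblast cells with less Myc or more p53 activity than their neighbours are known to be eliminated in a process called cell competition, and Myc and N-myc are transcription factors that raise ribosome production and growth.

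The sequences at the start of *Cdkn1a* and *Ccng1* are shown because these were the only members whose start regions held a p53 response element, the pair of 10-base repeats that p53 binds. The windows searched were RefSeq start regions on GRCm38.p6 of 300 bases, from 250 before to 50 after each annotated gene start, and 11 windows of 8 members were found. No window was found for *Myc* or *Trp53inp1*. A pair of directly adjacent repeats with at most 1 mismatch over its 20 bases was found in 2 of these 11 windows and in 22 of 32851 windows of all genes (0.0670%). The element is its own reverse complement, so both strands were covered. With spacers of up to 13 bases between the repeats, the same 2 member windows matched and the share of all windows was 0.627%. The capitals mark the element, 5' to 3' on the strand of the gene. The *Cdkn1a* element lies at the first of 2 annotated starts, on the plus strand at chr17:29090888-29090987, and begins 51 bases before that start and 2841 bases before the other one. The *Ccng1* stretch is on the minus strand at chr11:40755422-40755521, and its element begins 195 bases before the start. The third sequence, on the minus strand at chr7:45466875-45466934, shows the E-box CACGTG, a motif that Myc binds with its partner Max, in the window of *Bax*, with the motif in capitals.
*Cdkn1a*: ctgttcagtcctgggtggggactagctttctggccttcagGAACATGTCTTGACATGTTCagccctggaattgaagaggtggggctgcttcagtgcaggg
*Ccng1*: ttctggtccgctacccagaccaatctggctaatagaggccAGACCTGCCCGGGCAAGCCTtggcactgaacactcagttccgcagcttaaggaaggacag
*Bax*: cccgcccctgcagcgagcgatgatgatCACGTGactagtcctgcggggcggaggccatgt
The *Bax* window held 2 E-boxes, and the window of *Trp53* and 1 of the 3 windows of *Bbc3* held 1 each. Of all windows, 7.15% held this motif, which reads the same on both strands. A match is a run of letters and was not tested for binding in these embryos.

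Barcodes with at least 5000 detected genes gave 791 cells of the control library (median 75715 UMIs) and 864 of the *Yap1* cKO library (median 80922 UMIs). No barcode was shared between the cells of the libraries. Cells were parted into 9 populations by the summed level of marker genes, and 227 control and 199 *Yap1* cKO cells passed the epiblast gate. It asks for *Pou5f1* and other epiblast markers, with markers of the streak, mesoderm and extraembryonic lineages below set limits but not absent. The streak marker *Fst* was at 15.8 CPM in control against 28.4 CPM in *Yap1* cKO epiblast-gated cells, and *T* had 3 and 17 UMIs. Streak signal within this gate was thus not equal between the libraries. The streak gate is carried largely by *Fst* and less by *T* and *Mixl1*, and 24 of 303 control and 34 of 316 *Yap1* cKO cells of the epiblast and streak lay near the limit between the gates. The highest level of visceral endoderm markers in an epiblast-gated cell was 74.3 CPM (counts per 1000000 UMIs) for the control against 108 CPM for the *Yap1* cKO library. The labels call both pools female, yet 51.7% of control and 15.5% of *Yap1* cKO cells bore at least 2 Y-linked UMIs and none of *Xist*. The pools thus differ in sex makeup, and some ratios are given for Y-bearing and *Xist*-bearing cells (at least 2 UMIs of *Xist* and none Y-linked) apart. Ratios were parted in this way in epiblast-gated cells, streak-gated cells and extraembryonic ectoderm only, so the part of sex makeup in those of other populations was not tested. With 1 library a genotype, no test between genotypes was possible. Levels are the CPM of a gene among all UMIs of its population, and the 95% intervals in brackets cover counting error only, not the spread between embryos. Levels are compared between populations and libraries, not between genes.

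*Yap1* itself was at 29.8 CPM in control against 1.16 CPM in *Yap1* cKO epiblast-gated cells, giving a ratio of 0.0391 (0.0245 to 0.0592). In extraembryonic ectoderm, where Sox2-Cre itself should not recombine but the *Yap1* dose may differ between the pools, the ratio was 0.660 (0.562 to 0.774). It was 0.443 (0.281 to 0.691) in anterior visceral endoderm and 0.875 (0.725 to 1.06) in visceral endoderm. The 23 *Yap1* UMIs left in *Yap1* cKO epiblast-gated cells were unevenly spread, with 65.2% of them in 5 cells and 4 in a single cell, and whether these cells had escaped recombination was not tested. The 6 genes listed as a check of the YAP response were all at least 20% lower in *Yap1* cKO epiblast-gated cells. They ran from *Ccn1* at 0.144 to *Ccn2* at 0.717 times the control. Of all 11023 genes counted in these cells, 9.98% were at least 20% lower. All of the listed genes but *Ajuba* are named in the paper as lowered in these same data. Their direction was therefore largely known beforehand, and the list is not an independent check. In extraembryonic ectoderm none of the 6 was lower by that much, but 0 had a ratio above 1 and 2 had intervals below 1. Their median there was 0.910 against 0.964 over all genes.

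The *Trp53* ratio was close to 1 in epiblast-gated cells (see the plot of ratios in epiblast-gated cells). Among its targets *Mdm2* alone had a ratio below 1, and the others ran from *Bbc3* at 1.04 to *Cdkn1a* at 1.81. In epiblast-gated cells, 2 of the 10 genes were at least 25% higher in the *Yap1* cKO library, *Cdkn1a* and *Ccng1*, and 0 were at least 20% lower, which is the same fold in the other direction. Of all 11023 genes that reached 100 UMIs there in the libraries together, 5.06% were that much higher and 9.98% that much lower, and the median ratio of all of them was 0.962. *Mdm2*, *Myc* and *Mycn* lay at 0.831, 0.817 and 0.819 times the control without passing this fold. These values describe 2 libraries and are not a result on the genotypes.

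*Trp53* (chr11:69580359-69591873) was at 240 CPM in control against 242 CPM in *Yap1* cKO epiblast-gated cells, giving a ratio of 1.01 (0.966 to 1.05). The interval holds 1, so no difference was detectable over all these cells at this depth, but the ratio was 0.901 (0.837 to 0.969) in Y-bearing cells and 1.05 (0.993 to 1.11) in *Xist*-bearing ones. Of the other 8 populations, visceral endoderm alone had an interval without 1, at 0.864 (0.772 to 0.968). *Mdm2* (chr10:117688875-117710758), the inhibitor of p53 and the member of its feedback loop, was at 29.1 CPM (540 UMIs) in the control against 24.2 CPM (478 UMIs) in the *Yap1* cKO library. Its ratio was 0.831 (0.733 to 0.942), opposite in direction to those of *Cdkn1a* and *Ccng1*. It was 0.704 (0.559 to 0.881) in Y-bearing cells and 0.896 (0.757 to 1.06) in *Xist*-bearing ones, where the interval holds 1.

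*Cdkn1a* and *Ccng1* had the highest ratios of the members, though the interval of *Ccng1* overlapped that of *Phlda3*, at 1.23 (1.05 to 1.44). *Cdkn1a* (chr17:29090976-29100727) encodes p21, an inhibitor of cyclin-dependent kinases that halts the cell cycle. It was at 3.61 CPM (67 UMIs) in control against 6.52 CPM (129 UMIs) in *Yap1* cKO epiblast-gated cells, and the ratio of 1.81 (1.34 to 2.47) stood above that of 99.7% of the 11023 genes. Few cells carried it: the 22 control cells with most *Cdkn1a* held 82.1% of its UMIs, and the 19 such *Yap1* cKO cells held 75.2%. Without the 5 cells with most *Cdkn1a* UMIs in each library, 43 and 69 UMIs remained and the ratio was 1.53 (1.03 to 2.29). It was 2.46 (1.41 to 4.33) in Y-bearing cells and 1.38 (0.947 to 2.04) in *Xist*-bearing ones. *Ccng1* (chr11:40748552-40755311), which encodes cyclin G1, was at 23.5 CPM in the control against 29.5 CPM in the *Yap1* cKO library, giving a ratio of 1.26 (1.11 to 1.43). That value did not hold in Y-bearing cells, at 1.03 (0.818 to 1.29), against 1.38 (1.16 to 1.64) in *Xist*-bearing cells, and it was 1.18 without the 5 cells with most of it.

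The apoptosis genes showed small differences or none beyond counting error. *Bbc3* (chr7:16308393-16318205) encodes Puma, a protein that disables the guardians of the mitochondrial membrane. It was at 15.6 CPM in control against 16.2 CPM in *Yap1* cKO epiblast-gated cells, with a ratio of 1.04 (0.884 to 1.22). *Bax* (chr7:45461697-45466898) encodes a protein that forms pores in that membrane. It was at 444 CPM (8258 UMIs) and 493 CPM (9754 UMIs), giving a ratio of 1.11 (1.08 to 1.14). It was 1.19 in Y-bearing cells and 1.10 in *Xist*-bearing ones.

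The other targets leaned the same way as *Ccng1*. *Phlda3* (chr1:135766119-135769136), whose product holds back the survival kinase Akt, was at 15.3 CPM in the control against 18.7 CPM in the *Yap1* cKO library, giving a ratio of 1.23 (1.05 to 1.44). Taken apart, both intervals held 1, at 1.22 (0.923 to 1.62) in Y-bearing cells and 1.10 (0.895 to 1.36) in *Xist*-bearing ones. *Trp53inp1* (chr4:11156431-11174379) encodes a nuclear protein that promotes p53 activity. It was at 5.01 and 5.66 CPM, with a ratio of 1.13 (0.851 to 1.505), and these depths could not show a difference of that size. Summed, the 7 targets were at 536 CPM in control against 594 CPM in *Yap1* cKO epiblast-gated cells, giving a ratio of 1.11 (1.08 to 1.14) that mostly repeats *Bax*, since *Bax* gave 8258 of the 9968 control UMIs.

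*Myc* and *Mycn* were both lower in the *Yap1* cKO library, and for *Myc* the ratio differed between Y-bearing and *Xist*-bearing cells. *Myc* (chr15:61985391-61990374) was at 22.8 CPM (424 UMIs) in control against 18.6 CPM (369 UMIs) in *Yap1* cKO epiblast-gated cells, giving a ratio of 0.817 (0.709 to 0.942). In Y-bearing cells it was at 23.3 CPM in 120 control cells and 11.4 CPM in 39 *Yap1* cKO cells, giving a ratio of 0.491 (0.360 to 0.659). In *Xist*-bearing cells it was at 20.5 CPM in 99 control cells and 21.3 CPM in 152 *Yap1* cKO cells, giving a ratio of 1.04 (0.859 to 1.26). The lower *Myc* level of the *Yap1* cKO library was thus carried by its 39 Y-bearing cells, which came from a pool of 3 embryos and may all be from a single one. The embryo each cell came from was not analysed here, so sex and embryo cannot be told apart. *Mycn* (chr12:12936093-12941914) was at 138 CPM (2566 UMIs) in the control against 113 CPM (2238 UMIs) in the *Yap1* cKO library, giving a ratio of 0.819 (0.773 to 0.867). It was lower in both kinds of cell, at 0.674 (0.604 to 0.751) in Y-bearing cells and 0.849 (0.788 to 0.914) in *Xist*-bearing ones. Within the *Yap1* cKO library, the Y-bearing to *Xist*-bearing ratio was 0.536 (0.396 to 0.713) for *Myc* and 0.747 (0.672 to 0.829) for *Mycn*, and within the control library 1.14 (0.925 to 1.39) and 0.940 (0.868 to 1.02).

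**Figure D1:**
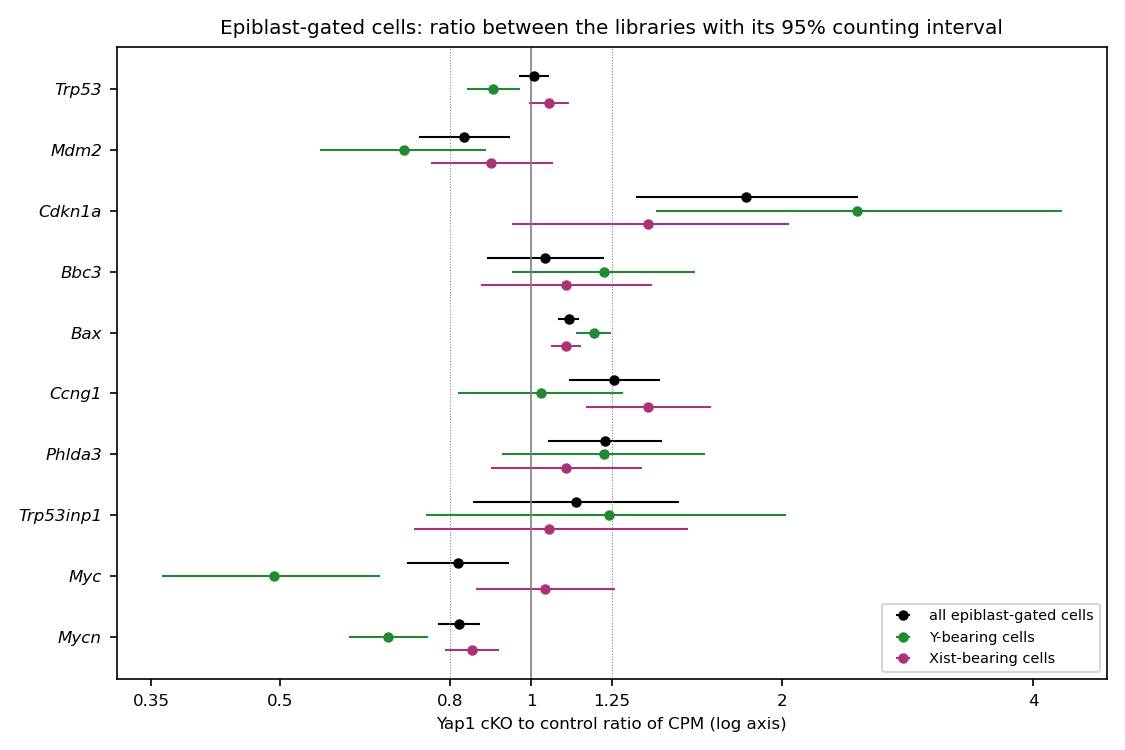
Ratio of *Yap1* cKO to control level (CPM, log axis) of each of the 10 genes in epiblast-gated cells, for all cells (black), Y-bearing cells (green) and *Xist*-bearing cells (purple), with 95% counting intervals; the dotted lines mark 25% higher and 20% lower. *Cdkn1a* stood at 1.81 for all cells, and *Myc* at 0.491 in Y-bearing but 1.04 in *Xist*-bearing cells.

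The wider p53 pathway did not shift as a group. Of 25 other p53 targets, 21 had at least 100 UMIs in epiblast-gated cells. Of these, 2 were at least 25% higher (*Ptp4a3*, a phosphatase, at 1.47, and *Pidd1*, a caspase-2 activator, at 1.30) and 0 at least 20% lower, and the median ratio was 0.982 against 0.962 over all genes. The lowest of them were *Pmaip1*, which encodes the apoptosis protein Noxa, at 0.809 (0.750 to 0.873) and *Sesn1*, a stress-induced inhibitor of growth signalling, at 0.810 (0.672 to 0.977). Of 14 regulators of p53, 0 passed this fold in either direction and the median was 0.994. They ranged from *Trp53bp1*, a DNA damage adaptor, at 0.834 and *Ppm1d*, a phosphatase that quiets p53, at 0.849, to *Rchy1*, a ubiquitin ligase, at 1.09 and *Rpl11*, a ribosomal protein that can bind Mdm2, at 1.12. Of 16 genes of the Bcl2 family and of caspase activation, 1 was lower by this fold (*Bcl2*, which blocks apoptosis, 0.725 with an interval of 0.510 to 1.03), and *Diablo*, which frees caspases, stood at 1.247 (1.16 to 1.34) and *Bok*, a relative of *Bax*, at 0.836.

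Partners and growth targets of Myc also stayed within this fold in epiblast-gated cells, where 5.06% of all genes passed it upward and 9.98% downward. Of 8 network partners with enough UMIs, 0 passed it, with a median of 1.04, the highest being *Mycl*, another gene of the Myc family, at 1.20 (1.06 to 1.35), then *Mxd4* at 1.15, and the lowest *Mnt* at 0.822 and *Mga* at 0.855, all of them partners or competitors around Max. Of 24 growth targets, 0 passed it, with a median of 0.944 against 0.962 over all genes. Smaller differences went both ways, with intervals below 1 for 12 of these targets and above 1 for 7. Their extremes were *Nolc1* at 1.15 and *Cdk4*, a cell-cycle kinase, at 1.10, and *Mybbp1a* at 0.828 and *Wdr43* at 0.833, which with *Nolc1* act in the nucleolus. Of 11 genes of the integrated stress response 6 had enough UMIs, and of these, 0 were higher by this fold and 1 was lower, *Asns*, which makes asparagine, at 0.780. The next lowest was *Cebpb* at 0.840, and the highest were *Sesn2* at 1.21 and *Psat1* at 1.01.

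Across the populations each gene had its own pattern (see the plot of levels in 9 populations). *Trp53* was highest in the embryonic populations, at 256 CPM in control against 263 CPM in *Yap1* cKO streak-gated cells and 246 and 267 CPM in blood progenitors, whose intervals overlap. It was lowest in visceral endoderm, at 89.3 and 77.1 CPM, with the anterior visceral endoderm next at 107 and 105 CPM. The 6 populations of the epiblast lineage and the extraembryonic ectoderm lay above both, with no overlap of intervals. *Mdm2* ran from 26.3 to 35.8 CPM over the control populations and from 21.3 to 34.6 CPM over those of the *Yap1* cKO library. Every population overlapped its neighbour in that order, but some further apart did not. Extraembryonic ectoderm was at 1.23 times the epiblast in both libraries (1.10 to 1.38 and 1.07 to 1.40). Visceral endoderm was at 1.06 times (0.875 to 1.27) the epiblast in the control and 1.43 times (1.26 to 1.63) in the *Yap1* cKO library.

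**Figure D2:**
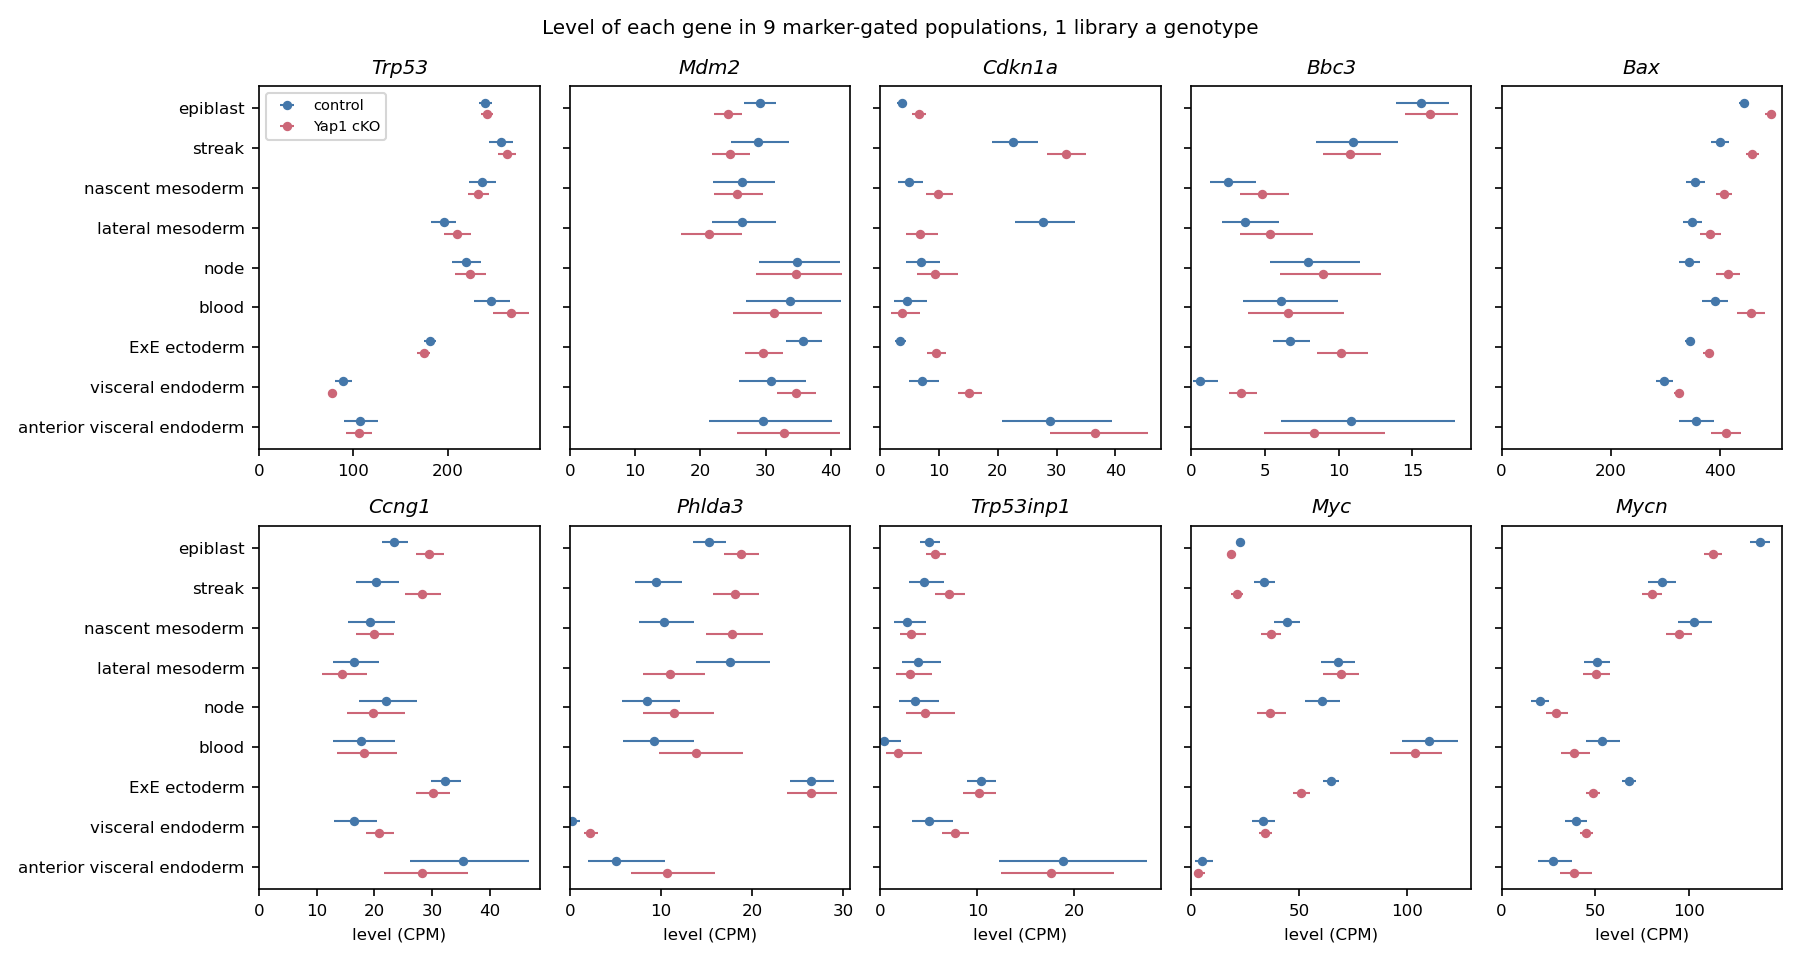
Level of each gene (CPM, linear axis from 0, its own scale in each panel) in 9 marker-gated populations of the control library (blue) and the *Yap1* cKO library (red), with 95% counting intervals. *Mycn* was highest in the epiblast (138 and 113) and *Myc* in blood progenitors (110 and 104), while *Trp53* was lowest in visceral endoderm (89.3 and 77.1).

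*Cdkn1a* differed several-fold between populations, with the same populations on top in both libraries except for the lateral mesoderm. It was at 28.9 CPM in control against 36.5 CPM in *Yap1* cKO anterior visceral endoderm and at 22.7 and 31.6 CPM in streak-gated cells. Streak-gated cells thus stood 6.28 times (4.65 to 8.56) above epiblast-gated cells in the control library and 4.84 times (3.95 to 5.97) in the *Yap1* cKO library. In extraembryonic ectoderm it was at 3.33 and 9.50 CPM, and in blood progenitors at 4.59 and 3.64 CPM. The lateral mesoderm ranked 2 of 9 populations in the control, at 27.7 CPM, and 7 of 9 in the *Yap1* cKO library, at 6.67 CPM.

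The apoptosis genes were highest in the epiblast. *Bbc3* was at 15.6 and 16.2 CPM there, overlapping the streak and the anterior visceral endoderm (10.8 CPM, 6.07 to 17.9) in the control library only. It was lowest in visceral endoderm, at 3 UMIs in 59 control cells (0.632 CPM, 0.130 to 1.85) and 51 UMIs in 179 *Yap1* cKO cells (3.42 CPM, 2.55 to 4.50). *Bax* ran from 444 and 493 CPM in the epiblast down to 298 and 325 CPM in visceral endoderm, and the epiblast was above the next population, the streak, without overlap in both libraries. *Phlda3* and *Trp53inp1* were instead highest in extraembryonic populations, though not in all of them. *Phlda3* was at 26.5 and 26.4 CPM in extraembryonic ectoderm, above every other population, and 1 UMI of it was counted in 59 control and 33 UMIs in 179 *Yap1* cKO visceral endoderm cells, 23 of these in 2 cells. *Trp53inp1* was highest in anterior visceral endoderm, at 18.8 and 17.6 CPM, followed by extraembryonic ectoderm at 10.3 and 10.1 CPM. *Ccng1* was at 35.4 and 28.2 CPM in anterior visceral endoderm and 32.3 and 30.1 CPM in extraembryonic ectoderm, and lowest at 16.4 CPM in control visceral endoderm and 14.4 CPM in *Yap1* cKO lateral mesoderm.

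*Myc* and *Mycn* were distributed differently, as the plot of *Mycn* against *Myc* shows. *Myc* was highest in blood progenitors, at 110 CPM in control against 104 CPM in *Yap1* cKO cells, which is 4.83 and 5.56 times the epiblast level. It was next in lateral mesoderm, at 67.9 and 69.3 CPM, and lowest in anterior visceral endoderm, with 7 UMIs in each library (5.06 and 3.24 CPM). *Mycn* was highest in the epiblast, at 138 and 113 CPM, followed without overlap by nascent mesoderm at 103 and 94.7 CPM and the streak at 85.7 and 80.3 CPM. It was lowest in the node, at 20.3 and 29.1 CPM.

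As a share of the UMIs of both genes, *Mycn* made up 85.8% in epiblast-gated cells of each library (84.5 to 87.1% and 84.4 to 87.2%). This share was 70.0 and 72.0% in nascent mesoderm, 42.8 and 42.2% in lateral mesoderm and 32.7 and 27.3% in blood progenitors, so it was lower in the later mesoderm than in the epiblast of both libraries. The share is of 3' tags of these genes alone and is compared between populations, and *Mycl* is not in it. The node differed between the libraries, at 25.1% (20.2 to 30.4%) in the control against 44.1% (37.4 to 51.1%) in the *Yap1* cKO library, and 1 of its 38 *Yap1* cKO cells was Y-bearing against 20 of 45 control cells. The part of sex makeup in this difference was not tested.

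**Figure D3:**
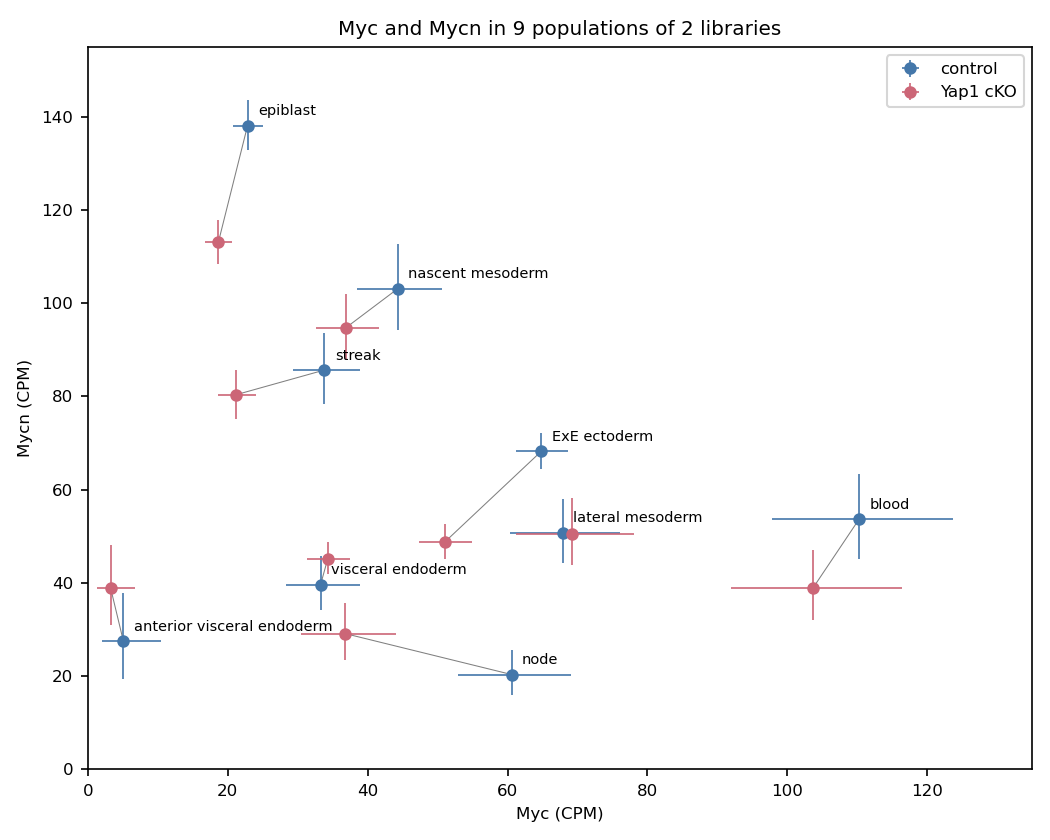
*Mycn* level (vertical axis) against *Myc* level (horizontal axis), both in CPM, in 9 populations of the control library (blue) and the *Yap1* cKO library (red); bars are 95% counting intervals and a grey line joins the libraries. The epiblast sits at the upper left (*Myc* 22.8 and *Mycn* 138 in the control), blood progenitors at the right (110 and 53.6).

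Over the 18 population levels (9 populations in each library, log2 of CPM plus 1, which share their libraries and are not independent), the levels of *Myc* and *Mycn* had a Pearson r of 0.0207. Among 10805 genes with at least 500 UMIs, the most like *Myc* were *Josd1* (0.948), *Gne* (0.906) and *Mtr* (0.901), and the most like *Mycn* were *Gclc* (0.836), *Hlcs* (0.828) and *Nrg3* (0.812). For *Cdkn1a* they were *Frem2* (0.759), *Porcn* (0.754) and *Tmem234* (0.744). These r values describe likeness over few points and carry no test.

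The differences between the libraries also appeared outside the recombined lineage (see the plot of ratios by population). In streak-gated cells, 4 of the 10 genes were at least 25% higher in the *Yap1* cKO library (*Cdkn1a*, *Ccng1*, *Phlda3* and *Trp53inp1*) and 1 was at least 20% lower (*Myc*), against 5.33% higher and 8.84% lower of all genes there. The *Ccng1* ratio there was 1.16 (0.829 to 1.64) in Y-bearing cells and 1.54 (1.14 to 2.12) in *Xist*-bearing ones. That of *Trp53inp1* was 1.16 (0.578 to 2.38) and 2.62 (1.24 to 6.35), the latter with 8 control UMIs. In extraembryonic ectoderm, 2 were higher (*Cdkn1a* and *Bbc3*) and 2 lower (*Myc* and *Mycn*), against 6.00% and 8.78% of all genes. In visceral endoderm, 8 of the 10 had at least 100 UMIs. Of these, 3 were higher (*Cdkn1a*, *Ccng1* and *Trp53inp1*) and 0 lower, against 7.79% and 8.55% of all genes. The intervals of *Ccng1*, at 1.27 (0.989 to 1.65), and *Trp53inp1*, at 1.51 (0.969 to 2.46) with 24 control UMIs, held 1 there.

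*Cdkn1a* was higher in *Yap1* cKO cells of 5 of these populations with intervals above 1, of both embryonic and extraembryonic kind. The ratio was 1.39 (1.14 to 1.71) in the streak, 2.04 (1.26 to 3.41) in nascent mesoderm, 2.85 (2.09 to 3.94) in extraembryonic ectoderm and 2.12 (1.47 to 3.14) in visceral endoderm, beside the 1.81 of the epiblast. These ratios share the same pair of libraries and are not independent. Visceral endoderm held 34 control UMIs. Nascent mesoderm held 23 control and 72 *Yap1* cKO UMIs, together below the UMI minimum of the plot of ratios by population. Of the 72, 38 lay in 5 cells. Without the 5 cells with most *Cdkn1a* in each library, the nascent mesoderm ratio was 2.46 (1.15 to 5.83), with 9 control UMIs. The largest of the 5 ratios lay in extraembryonic ectoderm, with an interval that overlapped those of nascent mesoderm, visceral endoderm and the epiblast. Some of these values differed between Y-bearing and *Xist*-bearing cells: in streak-gated cells the ratio was 2.90 (2.03 to 4.24) in Y-bearing cells and 0.810 (0.631 to 1.05) in *Xist*-bearing ones. In extraembryonic ectoderm it was 0.775 (0.267 to 1.86), with 6 UMIs in 20 *Yap1* cKO cells, in Y-bearing cells and 2.46 (1.56 to 4.04) in *Xist*-bearing ones. Lateral mesoderm went the other way, at 27.7 CPM (121 UMIs) in the control against 6.67 CPM (26 UMIs) in the *Yap1* cKO library, giving a ratio of 0.241 (0.151 to 0.371). Of its control UMIs, 38 came from 2 of the 61 cells, and without the 5 cells with most *Cdkn1a* in each library the ratio was 0.151 (0.0577 to 0.333).

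*Phlda3* was 1.92 times (1.42 to 2.63) as high in *Yap1* cKO as in control streak-gated cells, from 9.44 to 18.1 CPM, and 1.73 times (1.23 to 2.45) in nascent mesoderm. The streak ratio was 1.68 (0.997 to 2.92) in Y-bearing cells and 1.81 (1.23 to 2.76) in *Xist*-bearing ones. In extraembryonic ectoderm its ratio was 0.998 (0.869 to 1.15) and in lateral mesoderm 0.626 (0.421 to 0.921). *Bax* had the narrowest range: its ratio lay between 1.09 and 1.21 in the 9 populations, with the interval above 1 in all 9.

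*Myc* in streak-gated cells was at 33.8 CPM (197 UMIs) in the control against 21.1 CPM (243 UMIs) in the *Yap1* cKO library. The ratio was 0.625 (0.516 to 0.758), and it was 0.588 (0.420 to 0.818) in Y-bearing cells and 0.601 (0.468 to 0.774) in *Xist*-bearing ones, so unlike the epiblast value it was below 1 in both. In the node *Myc* was at 60.6 and 36.8 CPM, giving a ratio of 0.607 (0.482 to 0.762), and in extraembryonic ectoderm at 64.8 and 51.0 CPM, giving a ratio of 0.787 (0.716 to 0.865). In lateral mesoderm, blood progenitors and visceral endoderm the *Myc* intervals held 1, at ratios of 1.02, 0.941 and 1.03. *Mycn* was lower in extraembryonic ectoderm, at 68.2 and 48.7 CPM (0.715, 0.650 to 0.785), in both Y-bearing (0.754) and *Xist*-bearing cells (0.650), and higher in the node at 1.43 (1.05 to 1.97).

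**Figure D4:**
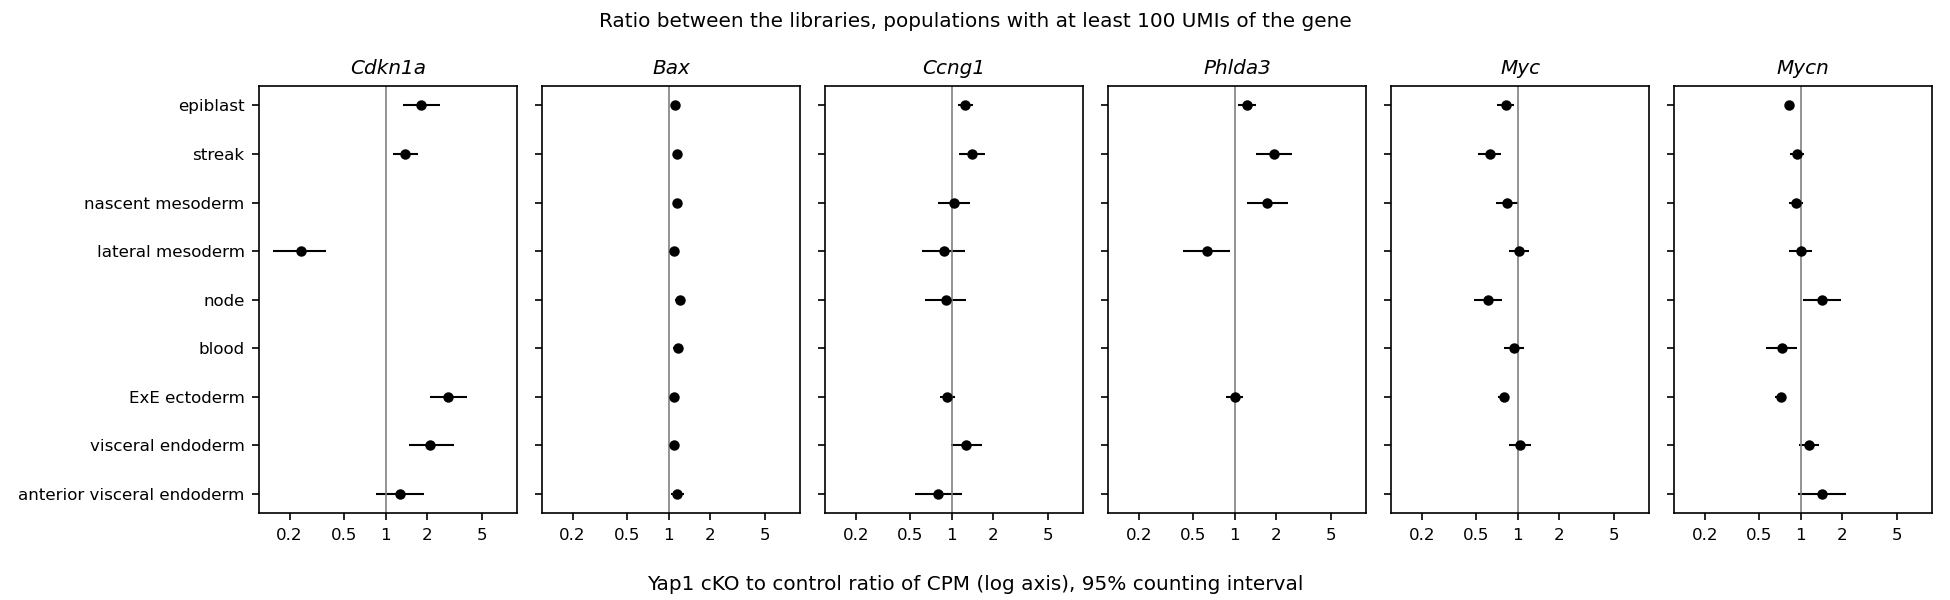
Ratio of *Yap1* cKO to control level (log axis) of 6 of the genes in each population where the gene had at least 100 UMIs over both libraries, with 95% counting intervals. *Bax* stayed between 1.09 and 1.21, while *Cdkn1a* ran from 0.241 in lateral mesoderm to 2.85 in extraembryonic ectoderm.

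To see how the genes varied between epiblast cells, each cell was thinned to 38000 UMIs, which kept 224 control and 193 *Yap1* cKO cells and left out 3 and 6. Counting alone gives a variance equal to the mean. *Trp53* was close to that, with a variance to mean ratio of 1.13 in control and 1.08 in *Yap1* cKO cells, under the median of 1.21 and 1.30 of genes of similar mean. *Bax* was also below such genes, at 1.26 and 1.16 against 1.28 and 1.496. *Cdkn1a* spread most beyond counting in the control, at 1.58 against 1.06 for similar genes, and was at 1.98 against 1.06 in the *Yap1* cKO library.

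*Ccng1* was at 1.41 and 1.70, *Phlda3* at 1.36 and 1.87, and *Bbc3* at 1.23 and 2.26, all above similar genes at 1.08 to 1.11. *Mycn* was at 1.53 and 1.45 and *Myc* at 1.20 and 1.26, against 1.16 and 1.20, and 1.09 and 1.09. In each library, 7 of the 10 genes were more variable than the median of genes of similar mean, a level that as many genes exceed as fall below. The *Yap1* cKO values include 1 cell, described below, with 11 thinned UMIs of *Bbc3*, 8 of *Ccng1* and 8 of *Phlda3*. The spread without that cell was not computed. *Myc* ranged from 0 to 5 UMIs with a median of 1 in both libraries, and *Mycn* from 0 to 14 with a median of 5 in the control and from 0 to 12 with a median of 4 in the *Yap1* cKO library.

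A single *Yap1* cKO cell stood apart in the p53 targets (see the plot of single cells). Before thinning it held 66642 UMIs, of which 130 were of the 7 targets, or 1951 CPM. The next *Yap1* cKO cell was at 983 CPM, the highest control cell at 931 CPM, and the medians at 562 and 537 CPM. It held 10 UMIs of *Mdm2*, 11 of *Cdkn1a*, 19 of *Bbc3*, 52 of *Bax*, 17 of *Ccng1*, 15 of *Phlda3* and 6 of *Trp53inp1*, where the median *Yap1* cKO cell held 2, 0, 1, 42, 2, 1 and 0. All 7 were thus above the median cell, with *Trp53* at 31 UMIs against a median of 21, *Myc* at 2 and *Mycn* at 4 against medians of 1 and 10.

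The cell was picked for these genes, but the sum of 25 other p53 targets, which had no part in the choice, was also highest in it of all 199 cells. This sum was at 1261 CPM against a median of 391 CPM. Of the 25 genes, 18 had a UMI in the cell, against a median of 13 over the cells. Those with most UMIs in it were *Aen*, an exonuclease of apoptosis, with 20, *Pmaip1* with 19, *Sesn2* with 9 and *Ak1* with 7. Medians of these single genes were not computed. The control cell highest in the 7 targets held 15 UMIs of *Aen*. Its sum of the 25 genes was 460 CPM against a median of 397 CPM, and 72 of 227 control cells were higher. The *Yap1* cKO cell held no *Yap1* UMI and 0.368% mitochondrial UMIs, and it was not called a doublet. Thinned, the sum of the 7 targets was 65 in this cell, while the other cells ranged from 8 to 38, with a median of 22 in the *Yap1* cKO and 20 in the control library. It is 1 cell of 199, and *Bbc3* held 19 of its 321 *Yap1* cKO UMIs there. The cells with most *Cdkn1a*, with 19 and 18 UMIs, were others.

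**Figure D5:**
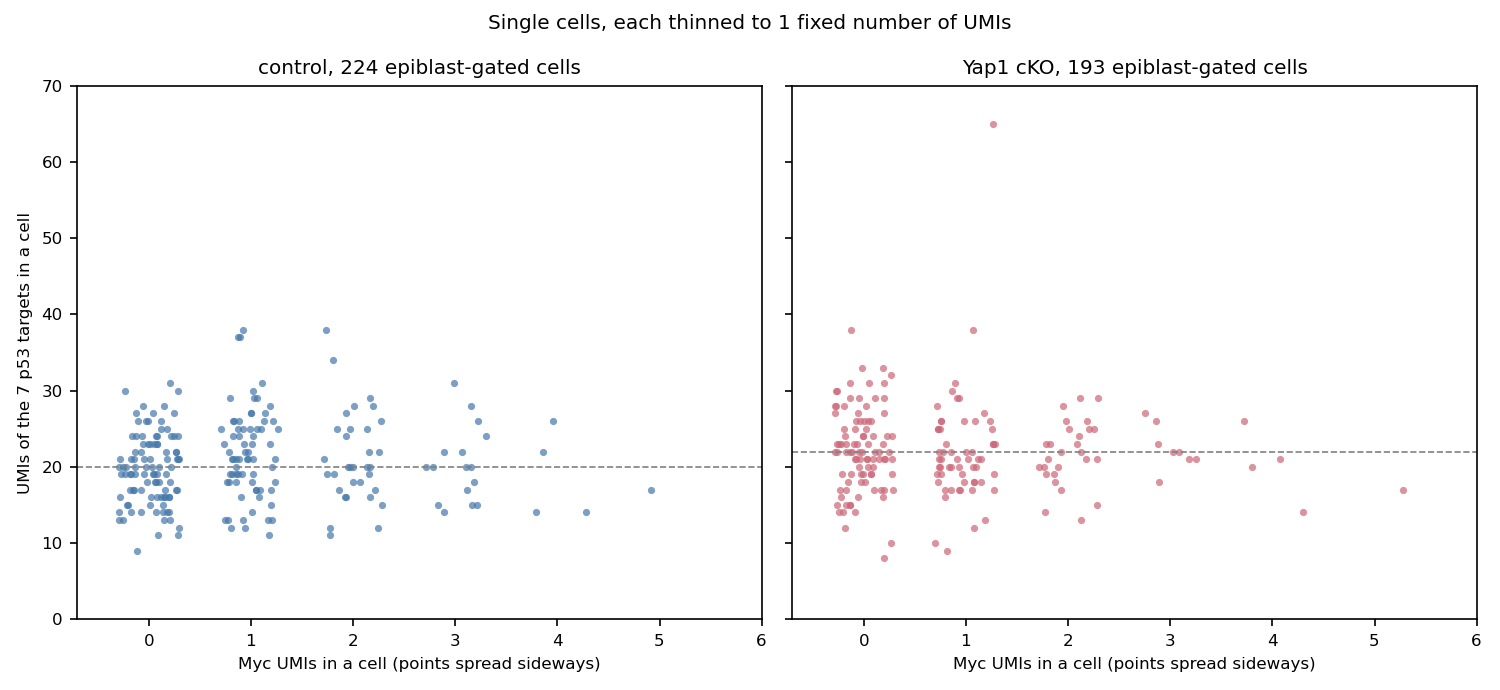
UMIs of the 7 p53 targets (vertical axis) against UMIs of *Myc* (horizontal axis, points spread sideways) in each epiblast-gated cell thinned to 38000 UMIs, for 224 control cells (left, blue) and 193 *Yap1* cKO cells (right, red); dashed lines are medians of 20 and 22. A *Yap1* cKO cell at 65 stands above all others, which reach at most 38.

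No clear relation of *Myc* with the summed p53 targets was seen from cell to cell at this depth. The sum is mostly *Bax*, which varied little beyond counting. *Myc* averaged 0.920 UMIs a cell in thinned control and 0.819 in thinned *Yap1* cKO cells. Values near 0 therefore cannot decide whether *Myc* varied with p53 activity. Spearman's rho of *Myc* with the 7 targets summed was 0.0825 over 224 control and -0.0558 over 193 *Yap1* cKO cells, which share a library, and for *Mycn* it was 0.0784 and -0.0792. *Myc* with *Mycn* gave 0.00623 and -0.116. *Cdkn1a* with the other 6 targets gave 0.127 and -0.0428. Over all 45 pairs of the 10 genes the median rho was 0.0219 (control) and 0.0168 (*Yap1* cKO). The highest were 0.249 for *Trp53* with *Mycn* and 0.241 for *Cdkn1a* with *Phlda3* in the control, and 0.259 for *Ccng1* with *Phlda3* in the *Yap1* cKO library, where the first of these pairs gave 0.0787 and the second 0.0168. *Ccng1* with *Phlda3* gave 0.110 in the control. Correlations this weak in sparse counts are given as a description.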

How the data were processed

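Droplet single-cell 3' RNA-seq of 1 control and 1 *Yap1* cKO pool of E7 embryos was analysed. The deposited values are UMI counts of 32285 genes in 1829 and 1897 barcodes, made by the authors with Cell Ranger 7.1.0 on mm10 (per the submitters' processing notes), without normalization. The libraries hold 70573418 and 87937858 UMIs. Coordinates of genes were read from GENCODE M21 (GRCm38).

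Barcodes with at least 5000 genes and at most 10% mitochondrial UMIs were kept (the second limit removed 0). Populations were gated on summed marker CPM, with a minimum of 200 for epiblast, 150 for streak, extraembryonic ectoderm and node, 300 for nascent and lateral mesoderm, blood and anterior visceral endoderm, and 1000 for visceral endoderm. These limits were set after marker levels were seen. The ectoderm gate leaves out *Rhox5*, which visceral endoderm also carries. The 10 genes, all gene lists and the fold of 1.25 were chosen with earlier results of these data known. By rule, the text names these 10, *Yap1*, the 2 highest and 2 lowest ratios of each list in the epiblast among genes with at least 100 UMIs, and the 3 genes most like *Myc*, *Mycn* and *Cdkn1a*. *Ddit3*, whose symbol is on several rows, was left out of its list. A result that this rule would name is not reported here. The single cell was chosen after its values were seen.

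UMIs were summed by population and library. The exact 95% intervals are conditional binomial ones for ratios, Clopper-Pearson ones for shares and Poisson ones for CPM. Because a genotype has 1 library, no test was made. Thinning was without replacement to 38000 UMIs, and genes of similar mean lay within 1.5 times the mean. Doublets were kept in the main values. Scrublet, run in Scanpy 1.11.5 on each library, called 4 control and 19 *Yap1* cKO cells, none of them in the epiblast gate. Ambient RNA removal by SoupX was not repeated. Analyses used Python 3.11.15, SciPy 1.17.1 and NumPy 2.4.6, and intervals, thinning and spread were tested on simulated data.

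Values were recomputed with a minimum of 2000 or of 6000 detected genes, doublets left out, scaling by the median ratio, totals without ribosomal protein and mitochondrial genes, cells weighted equally, thinned cells, the streak included, stricter gates, Y-bearing or *Xist*-bearing cells alone, a UMI minimum of 20, a fold of 1.5, and no thinning. Leaving out the 5 cells with most UMIs of a gene, and parting the streak and extraembryonic ectoderm by sex, were chosen after seeing the data.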

Additional observations from a re-analysis of the deposited data

Results flagged for a closer look

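Members whose ratio between the libraries lay on opposite sides of 1 in 2 populations, with intervals that both leave out 1 and at least 100 UMIs, are given here; the difference between the populations was not tested. The *Cdkn1a* ratio was 2.85 in extraembryonic ectoderm and 0.241 in lateral mesoderm. The *Phlda3* ratio was 1.92 in streak-gated cells and 0.626 in lateral mesoderm, where it was 0.803 (0.472 to 1.35) without the 5 cells with most of it. The *Mycn* ratio was 1.43 in the node and 0.715 in extraembryonic ectoderm.

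Barcodes with at least 2000 but under 5000 detected genes, 301 of the control against 417 of the *Yap1* cKO library, entered none of the report's values, only the alternative with a minimum of 2000 genes, and held 2 members at a higher level in the *Yap1* cKO library. *Cdkn1a* was at 5.12 CPM (20 UMIs) for the control against 9.40 CPM (46 UMIs) for the *Yap1* cKO library, with a ratio of 1.84 (1.07 to 3.28). *Myc* was at 35.1 CPM (137 UMIs) and 45.2 CPM (221 UMIs), with a ratio of 1.29 (1.04 to 1.61), opposite in direction to the 0.755 over all cells with at least 5000 genes.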

How the results depend on the processing

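No paired analysis was possible because each genotype has a single library and the labels give both the replicate number 1. Of the 120 alternative values of the 10 epiblast ratios, 108 stayed within the main 95% interval, 11 moved out of it and 1, that of *Myc*, crossed to the other side of 1 from a main interval that leaves out 1. Leaving out doublets could not change these ratios, because no doublet was called in the epiblast gate, so its 10 values equal the main ones. The ratios of *Trp53* and *Bbc3*, whose main intervals hold 1, lay on the other side of it under 3 and 2 alternatives. Counts of members past the fold take members with at least 100 UMIs under each alternative. The share of all genes past the fold was not computed under the alternatives, so these counts have no background to be read against. In Y-bearing cells alone the ratios were 0.901 for *Trp53*, 0.704 for *Mdm2*, 1.22 for *Bbc3*, 1.19 for *Bax*, 1.03 for *Ccng1*, 0.491 for *Myc* and 0.674 for *Mycn*, and by that count 0 members were at least 25% higher, *Cdkn1a* at 2.46 being left out with 57 UMIs, and 3 at least 20% lower. In *Xist*-bearing cells alone they were 1.05 for *Trp53* and 1.04 for *Myc*, on the other side of 1. Median ratio scaling gave 1.15 for *Bax*. In thinned cells *Bax* was at 1.07 and *Mycn* at 0.903, and 1 member, *Phlda3*, counted as at least 25% higher, *Cdkn1a* at 1.57 being left out with 73 UMIs. With the streak included, 4 members were higher and 1 lower. At a fold of 1.5, and without the 5 cells with most UMIs of the gene, 1 member was higher, *Cdkn1a*. The causes were not tested, apart from the fold, which is stricter by construction. The *Cdkn1a* ratio lay between 1.38 and 2.46 under all 12 alternatives run, and that of *Mycn* between 0.674 and 0.903. Without thinning, 8 control and 7 *Yap1* cKO members were more variable than the median of genes of similar mean. The rho of *Myc* with the targets was then -0.00744 and -0.0613. Counts under 100 UMIs limit *Cdkn1a* in the control epiblast (67) and *Trp53inp1* (93), and embryo-to-embryo spread cannot be seen in pools.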

Other observations

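Barcodes with at least 2000 but under 5000 detected genes also held members at a lower level in the *Yap1* cKO than in the control library. The ratio was 0.588 (0.409 to 0.842) for *Phlda3*, 0.779 (0.678 to 0.896) for *Mycn* and 0.846 (0.772 to 0.926) for *Trp53*. For *Bax* it was 0.915 (0.855 to 0.980), opposite in direction to the 1.10 over all cells with at least 5000 genes. These barcodes mix all populations, and their makeup was not gated here.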
